A study of Mus musculus with 2 samples.

Results

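The genes described here bear symbols used for voltage-gated calcium and sodium channels, potassium channels of all kinds and their auxiliary subunits. They were chosen by symbol, with earlier results of these data known. The rule took protein-coding genes of GENCODE release M21 (mouse build GRCm38) with symbols beginning Kcn, Cacna1, Cacna2d, Cacnb, Cacng or Scn with a digit. It left out Kcnq1 and Kcnk9. This gave 132 of the 21755 protein-coding genes on the 20 chromosomes examined. Each was placed against the boundaries of chromosome neighbourhoods in adult mouse olfactory sensory neurons, measured by in situ Hi-C, which counts DNA contacts inside fixed nuclei. The cells were FACS-sorted mature neurons, taken from the olfactory epithelium of mice of mixed sex and unspecified strain, with a conditional knockout of the transcriptional cofactor gene Ldb1 driven by OMP-Cre, a recombinase expressed in mature olfactory neurons. There were 2 biological replicates of 1000000 cells each, both knockout, and their contacts were pooled by the authors before boundaries were called. No control neurons were analysed here, so nothing below compares knockout with normal cells, and a boundary list holds no expression with which to check the sort or the loss of Ldb1.

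The pooled list held 7610 boundaries, each a 5 kb bin that few contacts cross, with a strength that is the authors' own score and a class. Of these, 4022 were strong and 3588 weak, and the division fell at a strength of 0.500. The median strength was 0.538. Because the list is 1 measurement with no replicate error and of unknown depth, the exact 95% intervals below cover counting error only and treat genes as independent, which neighbouring members of a family are not. No test of the channel genes against other genes was run. Their counts are set beside those of all protein-coding genes and of genes of like local density. For the comparison by density, each channel gene was given the value found in other protein-coding genes of its decile of transcription start sites (TSSs) within 100 kb, and these values were averaged.

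Neurons fire because voltage-gated sodium channels open and depolarise the membrane, potassium channels repolarise it, and voltage-gated calcium channels admit the calcium that releases transmitter. The pore of a sodium or calcium channel is formed by a single large subunit, whereas potassium channel pores are assembled from several smaller ones. Auxiliary subunits affect where many of these channels go and how they gate. In olfactory sensory neurons odorants first open cyclic nucleotide-gated channels in the cilia, and the spike that follows is carried by voltage-gated channels. In mice the sodium channel gene Scn9a is needed there for transmitter release onto the olfactory bulb. Many of these genes are long and stand apart from other genes, and some lie in small tandem families.

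For 5 of the channel genes the TSS lay inside a boundary bin. Of these, Kcnb2 had no RefSeq promoter in the set used, and the RefSeq start of Kcnma1 lay outside its bin. The promoters of the other 3 are shown because the RefSeq start site, too, lay in the bin. They are the A-type potassium channel gene Kcnd2 (chr6:21215096-21215395, plus strand), Kcnh5 of the ether-a-go-go family (chr12:75177283-75177582, minus strand) and Kcne2, which encodes a small auxiliary subunit (chr16:92292139-92292438, plus strand). Each runs 5′ to 3′ from 250 bases before to 50 bases after the RefSeq start (RefSeq sequence, GRCm38.p6). Capitals mark the GC box letters GGGCGG on either strand.
Kcnd2 promoter: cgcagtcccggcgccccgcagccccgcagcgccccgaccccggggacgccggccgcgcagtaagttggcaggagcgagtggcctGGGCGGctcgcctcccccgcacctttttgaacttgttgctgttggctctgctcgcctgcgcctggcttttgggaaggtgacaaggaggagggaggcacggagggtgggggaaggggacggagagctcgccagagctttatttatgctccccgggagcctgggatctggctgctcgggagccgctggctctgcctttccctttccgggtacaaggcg
Kcnh5 promoter: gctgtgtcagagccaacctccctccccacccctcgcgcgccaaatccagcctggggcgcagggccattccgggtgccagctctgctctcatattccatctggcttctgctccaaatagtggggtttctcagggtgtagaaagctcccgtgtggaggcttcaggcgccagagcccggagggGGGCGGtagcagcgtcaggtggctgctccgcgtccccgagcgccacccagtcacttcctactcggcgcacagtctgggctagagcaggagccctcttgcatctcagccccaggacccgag
Kcne2 promoter: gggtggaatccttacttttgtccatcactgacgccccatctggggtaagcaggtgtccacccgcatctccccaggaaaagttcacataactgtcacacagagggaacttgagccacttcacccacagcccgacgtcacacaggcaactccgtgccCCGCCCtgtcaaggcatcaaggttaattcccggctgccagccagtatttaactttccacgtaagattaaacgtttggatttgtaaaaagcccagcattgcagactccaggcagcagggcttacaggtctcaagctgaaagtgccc
Each of the 3 windows held 1 GC box and none held the letters TATAAA on either strand. GC content was 68.7% for Kcnd2, 65.3% for Kcnh5 and 53.0% for Kcne2. RefSeq promoters were found for 99 of the 132 channel genes and for 16432 protein-coding genes. The GC box was present in 47 of the 99 (47.5%) and in 48.5% of all, and TATAAA in 4 (4.04%) and in 12.9% of all. The matched windows follow whichever RefSeq start lay nearest to the GENCODE start, and 60 of the 99 were within 100 bases of it.

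Few channel gene starts were at boundaries, and no more than in other genes. A TSS at most 10 kb from the nearest edge of a boundary bin, or inside one, was taken to be at a boundary. This held for 13 of the 132 channel genes (9.85%, exact interval 5.35 to 16.3%), against a background of 14.3% of all protein-coding genes. Genes of like density gave 14.8%, or 19.5 of 132 genes, a ratio of 0.665, and the interval covers that value. In the bin itself lay 5 channel TSSs (3.79%), against 3.86% of all genes. A strong boundary was within 10 kb of 6 channel TSSs (4.55%, exact interval 1.69 to 9.63%), against 9.30% of all genes and 9.34% of genes of like density, which the interval again covers. The shortfall did not extend to 25 kb. Between 10 and 25 kb from a boundary lay 24 channel TSSs (18.2%), against 11.6% of genes of like density, so the ratio was 1.06 for a 25 kb window. Within 50 kb lay 56 (42.4%), against 45.3% of all genes.

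Distances covered the range from 0 to 321 kb. The median was 60.5 kb in channel genes (interquartile range 24.2 to 94.9 kb), 60.2 kb in genes of like density and 56.6 kb in all genes. More than 200 kb from any boundary lay 7 channel TSSs (5.30%, exact interval 2.16 to 10.6%). The interval covers the 8.37% of all genes and the 9.51% of genes of like density. These 7 TSSs belonged to Cacng3, Cacng6, Cacna2d3, Kcnk2, Kcnv1, Kcnh7 and Kcna4. Just inside the 10 kb limit were Scn3a (7.37 kb), Scn1a (9.16 kb) and Kcnu1 (9.62 kb), and just outside were Kcnc4 (10.4 kb) and the ATP-sensitive potassium channel gene Kcnj11 (10.8 kb).

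**Figure D1:**
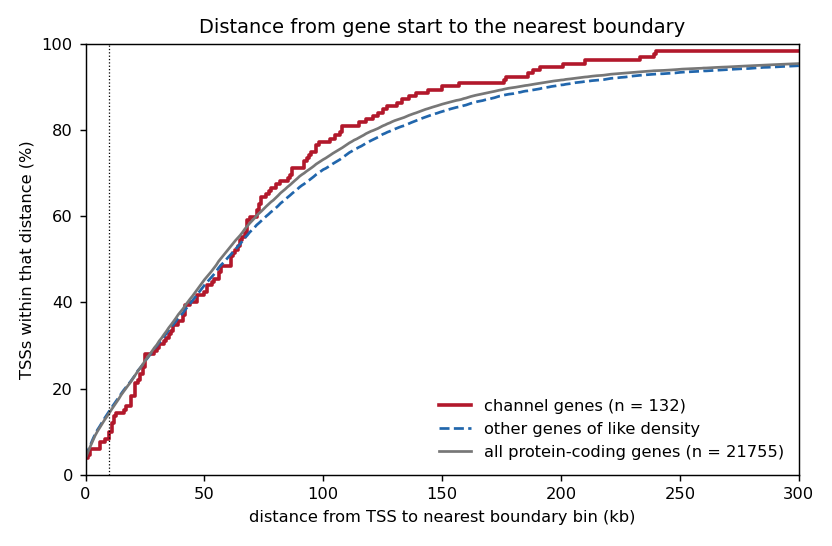
Cumulative share of TSSs (percent) by distance to the nearest boundary bin (kb) for the 132 channel genes (red), other genes of like density (dashed blue) and all 21755 protein-coding genes (grey), with the 10 kb limit dotted. The red curve lies below the others at 10 kb (9.85% against 14.8% and 14.3%) and above them at 200 kb.

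The 13 channel genes at a boundary each had a boundary of their own. The strongest was at Scn1a, a pore subunit of neuronal sodium channels (strength 1.88; chr2:66450001-66455000), and it lay upstream of the gene. Kcnq3, which encodes a subunit of the M-type potassium channel that damps repetitive firing, had a strong boundary (0.701; chr15:66280001-66285000) that overlapped an exon 1.64 kb past its TSS.

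Kcnma1, which encodes the pore of the large-conductance calcium-activated potassium channel, had its TSS in a strong bin (1.12; chr14:24010001-24015000). Its RefSeq start lies outside that bin. Kcne2 (0.877; chr16:92290001-92295000) and the sperm channel gene Kcnu1 (0.763; chr8:25835001-25840000) were also at strong ones. The weak ones were at the tandem-pore channel gene Kcnk18 (0.462), the Shaker-family gene Kcna6 (0.413), Kcnh5 (0.337), Kcnd2 (0.328), the delayed rectifier gene Kcnb2 (0.278), Scn4b, which encodes a sodium channel beta subunit (0.236), and Scn3a (0.213).

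The boundary was strong for 6 of the 13, with a median strength of 0.462. Among all genes at a boundary 65.0% were at a strong one and the median was 0.681. The 13 channel genes are few, and these differences were not tested. Over all 132 channel genes the nearest boundary at any distance was strong for 86 (65.2%), against 63.3% of all genes, and its median strength was 0.713, against 0.659. Another gene's TSS stood at the same boundary in 2 of the 13, Smim11 beside Kcne2 and Ash2l beside Kcnu1. That is 15.4%, against 23.03% in genes of like density that were at a boundary and 43.1% of all such genes.

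Of the 95 pore-forming genes 11 were at a boundary, and of the 37 auxiliary genes 2 were. Voltage-gated potassium pore genes accounted for 6 of the 11 (6 of 39, 15.4%), against 14.6% in genes of like density, and among them Kcnq3 was at a strong boundary. For each of the 9 classes genes of like density gave between 13.98 and 15.48%. The median distance of the voltage-gated potassium pore genes was 33.4 kb, against 61.7 kb in genes of like density. The same class held the most distant TSSs of all, those of Kcna4 (321 kb) and Kcnh7 (306 kb). Kcna3, a Shaker-family gene whose loss in mice sharpens the sense of smell, was 18.8 kb from a weak boundary (0.478). Calcium- or sodium-activated potassium pore genes had 2 of 8 at a boundary, Kcnma1 and Kcnu1, and the most distant were Kcnt2 (176 kb), whose channel opens with intracellular sodium, and the small-conductance channel gene Kcnn1 (91.7 kb).

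Sodium pore genes had 2 of 10 at a boundary, Scn1a and Scn3a, and a median distance of 38.2 kb, against 65.4 kb in genes of like density. Scn8a, the main sodium channel of the axon initial segment, was the most distant (125 kb, or 87.9 kb by any transcript start). Scn11a of sensory neurons followed (65.5 kb). Scn9a was 20.04 kb from a strong boundary (0.529). Of the 4 sodium beta subunit genes 1 was at a boundary, Scn4b, and Scn3b lay at 94.2 kb. The boundary nearest to Scn3b was strong (2.51), and the TSS of the olfactory receptor gene Olfr986 stood at it.

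No gene classed by symbol as calcium channel pore or auxiliary had its TSS at a boundary (0 of 10 and 0 of 16 genes). The nearest was Cacna1d, which encodes an L-type pore, at 11.5 kb, and the most distant pore genes were Cacna1b (157 kb), which encodes the N-type pore of nerve terminals, and Cacna1e (130.5 kb). These values depended on the start used. Counting any annotated protein-coding transcript start, Cacna1c lay in a bin and Cacna1d 1.99 kb from one, so that 2 of the 10 pore genes were at a boundary. Cacna1b then lay at 27.5 kb and Cacna1e at 13.6 kb. The share of other genes by any start is not given for this class. Over all channel genes any start gave 12.1%, a ratio of 0.713 to genes of like density. Genes classed as calcium channel auxiliary, by symbol alone (Cacna2d, Cacnb and Cacng), lay farther away than any other class. Their median was 111 kb, against 60.015 kb in genes of like density. Cacna2d3 was 238 kb from a boundary (124 kb from its nearest transcript start) and Cacng6 209 kb.

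Inward rectifier genes, whose channels hold the resting potential, had 0 of 15 TSSs at a boundary, or 1 by any transcript start (Kcnj11, 9.90 kb), and a median of 55.3 kb. Kcnj6 (187 kb, or 117 kb by any transcript start) and Kcnj3 (121 kb), subunits of the G protein-gated channel, were the most distant. Of their 3′ ends 5 of 15 lay within 10 kb of a boundary, those of Kcnj1, Kcnj4, Kcnj6, Kcnj10 and Kcnj11. Over all channel genes 18 3′ ends did (13.6%), against 13.2% of all genes. Tandem-pore genes, which carry background potassium current, had 1 of 13 at a boundary, Kcnk18, with Kcnk2 at 233 kb and Kcnk7 at 191 kb. Auxiliary potassium channel genes had 1 of 17, Kcne2, with Kcnab1 at 186 kb and Kcnip4 at 150 kb (84.3 kb by any transcript start).

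The share of genes whose nearest boundary was strong varied by class on both sides of the share in genes of like density. It was higher in tandem-pore genes (12 of 13, 92.3% against 63.7%), auxiliary potassium channel genes (14 of 17, 82.4% against 63.9%), auxiliary calcium channel genes (13 of 16, 81.2% against 63.1%) and calcium pore genes (7 of 10, 70.0% against 62.4%). It was lower in sodium pore genes (4 of 10, 40.0% against 58.7%), voltage-gated potassium pore genes (21 of 39, 53.8% against 60.8%), calcium- or sodium-activated potassium pore genes (4 of 8, against 60.6%), sodium beta subunit genes (2 of 4, against 64.8%) and inward rectifier genes (9 of 15, against 64.2%). The classes are small and these differences were not tested.

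**Figure D2:**
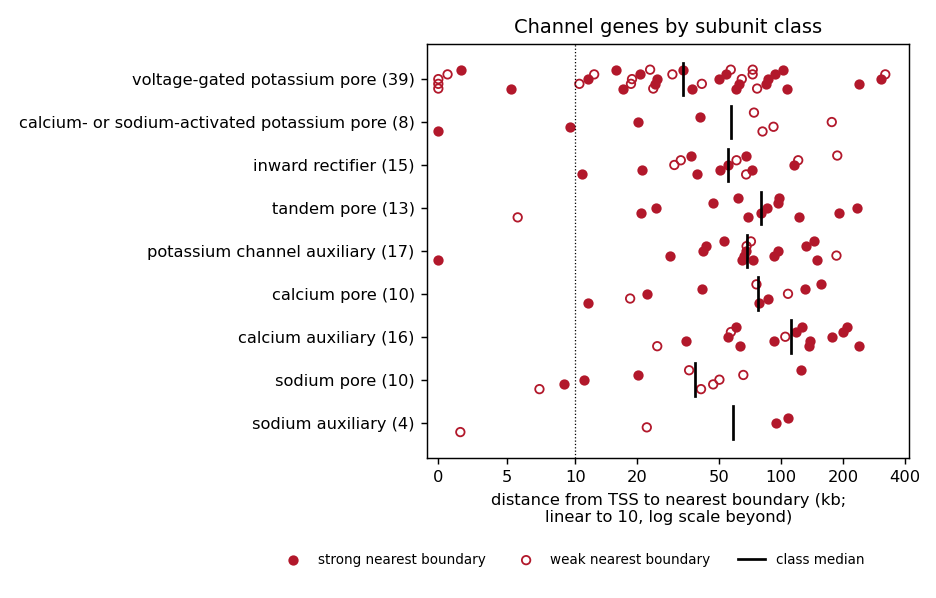
Distance from TSS to the nearest boundary (kb, linear to 10 and logarithmic beyond) for each channel gene by subunit class, with the number of genes in parentheses. Filled points have a strong and open points a weak nearest boundary, bars are class medians and the dotted line marks 10 kb. The 13 points at or left of the line come from 6 of the 9 classes, and the calcium auxiliary class has the farthest median (111 kb).

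Boundary counts were also taken by gene length. Channel genes were longer than most, with a median of 42.0 kb against 17.4 kb for all genes. Of the 42 channel genes of at least 100 kb, 7 had a TSS at a boundary (16.7%, exact interval 6.97 to 31.4%), against 17.3% of other genes of like length class and density. Of the 37 between 25 and 100 kb, 3 did (8.11%, exact interval 1.70 to 21.9%), against 14.3%. Of the 53 under 25 kb, 3 did (5.66%, exact interval 1.18 to 15.7%), against 14.5%, and these were Kcne2, Kcnk18 and Scn4b. Each interval covers the value of the other genes, and the difference between length classes was not tested. In the long genes the nearest boundary was upstream of the TSS for 30, downstream for 8 and around it for 4. The upstream share was 71.4%, against 64.2% of other genes of that length. In the 53 short genes it was 50.9%, against 47.2%.

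**Figure D3:**
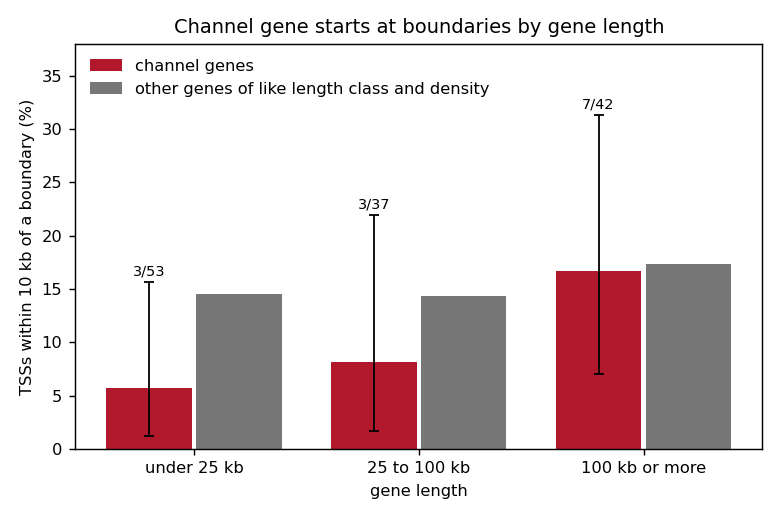
Share of TSSs within 10 kb of a boundary (percent) for channel genes (red, with exact 95% intervals and counts) and other protein-coding genes of like length class and density (grey), by gene length. The channel share is 5.66% under 25 kb and 16.7% from 100 kb, where the bars are nearly level.

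The neighbouring sodium pore genes named below were parted from each other, and the beta subunit genes Scn2b and Scn4b were not. Channel genes at most 200 kb apart formed 16 loci with 38 genes, 6 loci of 3 and 10 of 2. At least 1 boundary lay between the first and last TSS in 9 of the 16. On chromosome 2 Scn1a, Scn9a and Scn7a, the last encoding a sodium-sensing channel, point the same way within 514 kb (66270778 to 66784914). A strong boundary stood between each pair, 1.88 upstream of Scn1a and 0.529 upstream of Scn9a (chr2:66655001-66660000). A further strong boundary (0.922) lay 10.8 kb beyond the 3′ end of Scn1a and a weak one (0.462) 50.1 kb upstream of Scn7a. Each of the 3 genes thus had its TSS in an interval with no other protein-coding TSS.

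The nearby divergent pair Scn3a and Scn2a, with TSSs 53.1 kb apart, was parted by a weak boundary (0.213). On chromosome 9 a weak boundary (0.352) lay between the TSSs of Scn10a and Scn11a, which serve in pain-sensing neurons, inside the 3′ part of Scn11a. The beta subunit genes Scn2b and Scn4b on the same chromosome, with TSSs 20.6 kb apart, were not parted.

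Shaker-family potassium genes were parted by weak boundaries. On chromosome 6 one stood between Kcna5 and Kcna1 (0.394) and one between the TSSs of Kcna1 and Kcna6 (0.413), inside Kcna6 itself, and on chromosome 3 one stood between Kcna3 and Kcna2 (0.478), with none between Kcna2 and Kcna10. Among genes with Cacng symbols, Cacng7, Cacng8 and Cacng6 on chromosome 7 shared 1 interval of 855 kb with 23 protein-coding TSSs. On chromosome 11 a strong boundary (0.814) stood between Cacng4 and Cacng5 and none between Cacng1 and Cacng4. Kcnj16 and Kcnj2 were parted by a strong boundary (1.16), whereas Kcnj9 and Kcnj10, and Kcnj5 and Kcnj1, were not parted.

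Over all loci 12 of 22 neighbouring pairs were parted, including Kcne2 and Kcne1, where the boundary bin holds the TSS of Kcne2. All pairs of protein-coding TSSs at like distances gave 7.62 of 22. The latter were not limited to neighbouring genes or matched for local density or gene length, and the difference was not tested. None of 6 pairs within 50 kb was parted (12.3% of all pairs), 5 of 9 between 50 and 100 kb (30.2%), 6 of 6 between 100 and 200 kb (55.5%) and the 1 pair beyond 200 kb, Cacna1f and Kcnd1 (83.3%).

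**Figure D4:**
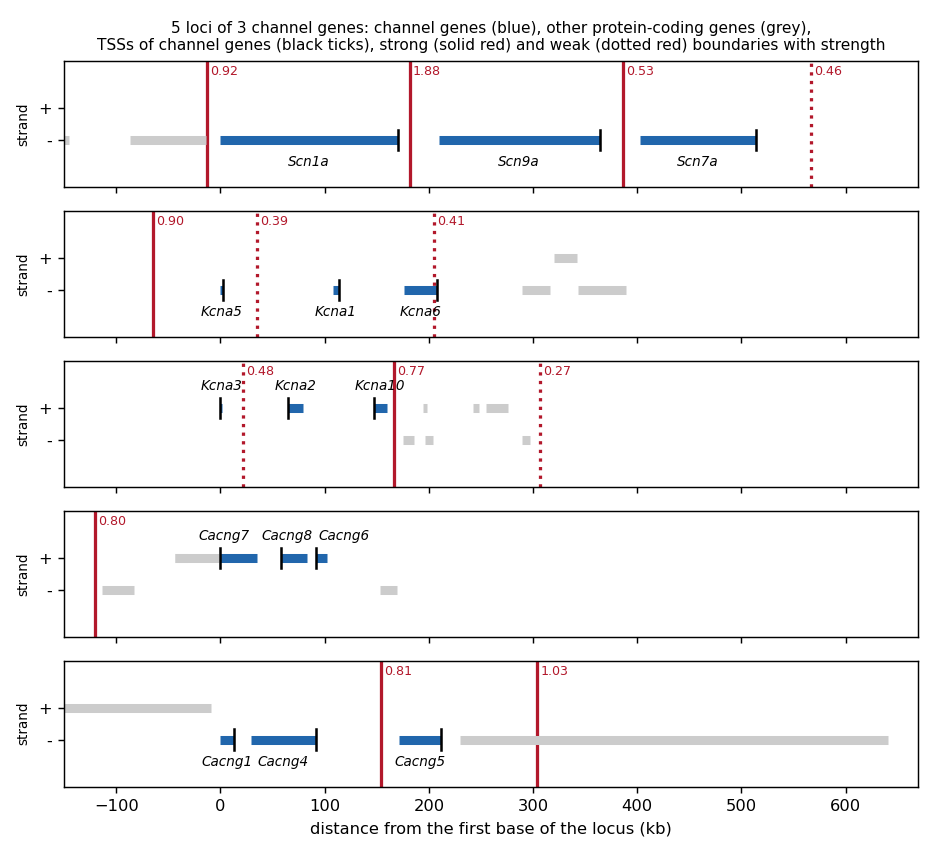
Of the 6 loci of 3 channel genes 5 are drawn, by distance from the first base of the locus (kb) and strand, with channel genes in blue, their TSSs as black ticks, other protein-coding genes in grey, and strong (solid) and weak (dotted) boundaries in red with their strengths. Scn1a, Scn9a and Scn7a are divided by boundaries of 1.88 and 0.53, and the Cacng7 locus has none within it.

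Channel genes had an interval to themselves in a larger share than genes of like density and length. Between the flanking boundaries of 127 channel TSSs (the 5 in a bin have no interval), the interval had a median length of 255 kb, against 295 kb in genes of like density and 270 kb in all genes. In 44 of the 127 (34.6%, exact interval 26.4 to 43.6%) no other protein-coding TSS shared it, against 9.47% of all genes, 18.6% of genes of like density and 21.1% of genes of like density and length. The match on density and length used plain length deciles, so it was coarse among the longest genes. Of the 44 genes, 13 belonged to loci of channel genes and 31 did not, and 24 were at least 100 kb long. They included Scn9a, Kcna3, Cacna1a, Cacna1e and Kcnq3. The largest interval, 1020 kb, held Kcna4 and 2 other TSSs, and the smallest, 95 kb, held Kcna5 alone. Channel genes more often lacked any other TSS within 100 kb (41 of 132, 31.1%) than all genes did (12.5%), which the density deciles take into account.

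Boundaries inside the genes were about as dense as in genes of like length. A boundary bin lay wholly inside 21 channel genes (15.9%), against 10.2% of all genes and 21.7% of genes of like length. Genes of like density gave 14.1%, and genes of like density and length 19.8%. These 21 genes held 32 boundaries, 15 of them strong. Over the 16.2 Mb of channel gene bodies this was 1.98 boundaries per Mb (exact Poisson 95% interval 1.35 to 2.80), against 2.13 in other genes of like length, 2.32 in all other genes and 2.89 in the whole genome. Strong boundaries alone came to 0.928 per Mb, against 1.09 in other genes of like length. The median strength of the 32 was 0.463, against 0.538 over all boundaries, whether inside a gene or not. These differences were not tested. An exon of the host gene was overlapped by 10 of the 32, and 22 lay wholly in introns. Nearer the 5′ end of the gene lay 17, and nearer the 3′ end 15.

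Kcnip4, which encodes a calcium-binding partner of A-type potassium channels, is the longest of them at 1135 kb and held 3 boundaries, of 1.42, 0.560 and 0.433, at 150, 435 and 755 kb from its start. Cacna1c and Cacna1d, both encoding L-type calcium channel pores, held 3 each. In Cacna1c the strongest (0.962; chr6:119105001-119110000) overlapped an exon 86.4 kb from the gene start and had 4 transcript starts of Cacna1c within 10 kb. In Cacna1d the strongest (0.990; chr14:30475001-30480000) was 11.5 kb from the gene start and also overlapped Dcp1a, whose TSS lay within 10 kb. It was the only one of the 32 with another gene's TSS within 10 kb. Kcnn2, a small-conductance channel gene, also held 3, of 0.317, 0.569 and 0.410.

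Cacna2d3 held 2 weak boundaries (0.398 and 0.272) in 817 kb, and Kcnip1 (0.826 and 0.692) and Kcnq3 (0.701 and 0.226) held 2 each. The strongest boundary inside any channel gene (1.505; chr1:154740001-154745000) was in an intron of Cacna1e, which encodes the R-type calcium channel pore, 140 kb from the gene start. Kcnma1 (725 kb) had 1 wholly inside (1.02), 464 kb from its start, besides the one at its TSS. Cacna1a, which encodes the P/Q-type pore of nerve terminals, had a strong one (1.10) over an exon 5.25 kb from its 3′ end. Long genes could also lack any. The longest with no boundary wholly inside were the M-channel family gene Kcnq5 (564 kb), Kcnd2 (514 kb), Kcnh7 (491 kb) and Kcnb2 (436 kb), of which Kcnd2 and Kcnb2 began in a boundary bin.

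**Figure D5:**
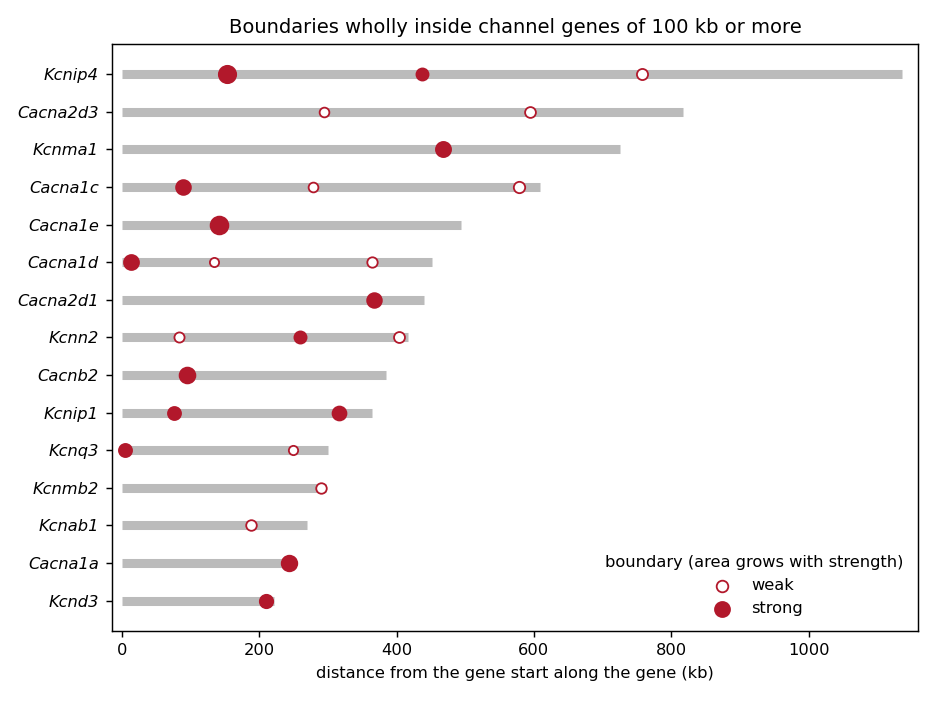
The 15 channel genes of at least 100 kb with a boundary wholly inside, drawn from the gene start by length (kb, grey bars), with strong (filled) and weak (open) boundaries whose area grows with strength. Kcnip4, Cacna1c, Cacna1d and Kcnn2 hold 3 boundaries each.

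The consensus of CTCF, the zinc finger protein that stops loop extrusion by cohesin, was looked for on both strands within 10 kb of each boundary. It was present at 5 of the 13 boundaries at channel TSSs (38.5%, exact interval 13.9 to 68.4%) and at 9 of the 32 inside channel genes (28.1%, exact interval 13.7 to 46.7%), against 24.4% of all boundaries. The matches at channel TSSs are printed 5′ to 3′ on the strand of the consensus, with the consensus in capitals, to show what was found beside these 5 boundaries. They were read from GRCm38 at chr6:21213991-21214030 (minus strand) for Kcnd2, chr14:24010166-24010205 (plus) for Kcnma1, chr15:66291387-66291426 (minus) for Kcnq3, chr2:65567568-65567607 (minus) for Scn3a, and chr19:59239618-59239657 and chr19:59239662-59239701 (both plus) for Kcnk18.
Kcnd2: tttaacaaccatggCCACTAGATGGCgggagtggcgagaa
Kcnma1: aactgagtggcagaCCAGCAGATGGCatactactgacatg
Kcnq3: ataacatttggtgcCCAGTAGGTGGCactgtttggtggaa
Scn3a: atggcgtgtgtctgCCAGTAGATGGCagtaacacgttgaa
Kcnk18 first match: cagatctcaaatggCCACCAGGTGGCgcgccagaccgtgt
Kcnk18 second match: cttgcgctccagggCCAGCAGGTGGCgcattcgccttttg
The match at Kcnma1 lay in the boundary bin, and the one at Kcnd2 was 0.985 kb from it. The others were 6.401 kb (Kcnq3), 7.41 kb (Scn3a), 9.63 and 9.68 kb (Kcnk18) away. By strand, the match at Kcnq3 pointed towards its boundary and those at Kcnd2, Scn3a and Kcnk18 pointed away from theirs. The boundary at Scn1a, the strongest of the 13, had no match to the consensus within 10 kb. Of the 116 boundaries nearest to a channel TSS at any distance, 41 had a match within 10 kb (35.3%, exact interval 26.7 to 44.8%). The share over all boundaries was 24.4%. In the bin itself a match lay at 7 of the 116 (6.03%), against 6.29% of all boundaries. These differences were not tested, and a match is a sequence and not a binding measurement.

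The same counts were taken for channels and partners outside these families. Channels of olfactory transduction and pacemaking (cyclic nucleotide-gated, hyperpolarisation-activated and the chloride channel gene Ano2) had 0 of 11 TSSs at a boundary, against 14.2% of genes of like density, and a median distance of 50.6 kb. Other cation channels, mostly of the Trp families, had 3 of 30 (10.0%), against 14.2%, with Catsper3 (1.20) and Trpv3 (0.659) at the strongest. Ligand-gated channel genes had 4 of 45 (8.89%), against 14.7%, with the kainate receptor gene Grik4 (1.86) and the nicotinic receptor gene Chrna2 (1.13) at the strongest. Genes of channel partners, such as ankyrins and fibroblast growth factor homologous factors, had 0 of 19, against 14.8%.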

How the data were processed

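In situ Hi-C libraries of 2 biological replicates of 1 group were digested with DpnII, and per the labels the contact pairs of both were combined by the authors into 1 contact matrix on GRCm38, from which insulation scores were computed and boundaries called. Of the caller, neither name, version nor window is stated in the labels. In the deposited list each of 7610 bins of 5 kb has a class and a boundary strength, which is the authors' score and was used only to describe and rank boundaries within this list. Depth is unknown and no replicate could be separated.

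Gene and transcript starts came from GENCODE M21, and the RefSeq promoters and genome from GRCm38.p6. Distances run from the gene's 5′ end to the edge of the nearest bin. Deciles of TSSs within 100 kb gave genes of like density, and deciles of gene length, the highest divided again into 10, gave genes of like length. Genes of like density and length shared both deciles, with the highest length decile left undivided. Intervals are exact binomial or Poisson 95% intervals. Computation was in Python 3.11.15 (scipy 1.17.1, numpy 2.4.6, pandas 2.3.3), with figures drawn in matplotlib 3.10.9. The distance, density and matching functions were tested on simulated data. Members and lists were chosen with earlier results of these data known, and the length classes and distance bands after the values were seen.

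Named genes were, per subunit class, the 2 with the strongest boundary within 10 kb and the 2 farthest from any, with those in a bin, those with most boundaries inside, the loci of 3, those nearest the 10 kb limit, Scn9a and Kcna3, and the 2 strongest of each other list. Further genes were named after their values were seen, where a count of few genes called for it. Some genes that fall under this rule are not reported here, though they stay in the counts. Chromosome Y was not analysed here. Alternatives varied the window, the boundary class, the start site, the members, the comparison genes and the overlap.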

Additional observations from a re-analysis of the deposited data

How the results depend on the processing

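No paired analysis was possible because boundaries were called on the pooled contacts of 1 group, and for the same reason no replicate could be left out. Of 38 alternatives to 7 results, 29 left the value inside the range set for it (a 95% interval for shares, medians and ratios, 1.5 times for counts of genes). The share of channel TSSs at a boundary was 3.79% for the bin alone, 28.0% within 25 kb, 42.4% within 50 kb and 4.55% for strong boundaries, and 12.1% with any transcript start. Its ratio to genes of like density lay between 0.487 (strong boundaries) and 1.06 (25 kb), and was 0.713 with any transcript start. The shortfall at 10 kb thus did not hold at 25 kb. The median distance was 95.5 kb to strong boundaries, for which the value in other genes is not given. For the 13 genes with a boundary within 10 kb, 46.2% of nearest boundaries were strong and the median strength was 0.462. Genes with a boundary inside numbered 13 when it had to be over 10 kb from both ends, and also 13 for strong boundaries. The shares of other genes under these rules are not given. Boundaries per Mb under them were 0.888 and 0.853 of the value in genes of like length. Relative to genes of like length, boundaries per Mb ranged from 0.853 to 0.929 over all settings, and relative to all other genes the value was 0.852. The causes were not tested. With depth unknown and 132 genes, the interval around 9.85% is wide enough to hold the value of genes of like density.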
